A study of Canis lupus familiaris with 4 samples.

Results

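The miR-183 cluster is a group of 3 miRNAs, miR-183, miR-96 and miR-182, which lie side by side on dog chromosome 14. Its members were taken by name from the deposited miRNA table, as the rows cfa-mir-183, cfa-mir-96 and cfa-mir-182, which are 3 of its 673 rows. Small RNA was sequenced from extracellular vesicles (EVs) of the canine mammary gland adenocarcinoma cell lines CHMp, from a primary tumor, and CHMm, from a metastasis of the same dog. EVs of CHMp are called pTDEs and EVs of CHMm mTDEs, with 2 replicate libraries each. Both cell lines were switched to medium without serum and antibiotics before EVs were collected, and neither received any other treatment. Because both cell lines come from a single dog, the replicates measure the spread between preparations of a cell line and not between tumors.

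miR-183, miR-96 and miR-182 are processed from a shared primary transcript. They are known for their high levels in sensory organs such as the retina and the inner ear, where changes in the seed of miR-96 cause hearing loss. In carcinomas, including those of the breast, the cluster is often raised, and miR-96 and miR-182 are known to repress FOXO1, a transcription factor that restrains cell growth. A miRNA recognizes its targets mainly through its seed, bases 2 to 8 from its 5′ end, so members with different seeds can be present together and still act on different targets.

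In the RefSeq gene order of the UU_Cfam_GSD_1.0 assembly, MIR183, MIR96 and MIR182 follow each other within the long noncoding RNA gene LOC102151305. The nearest protein-coding genes are UBE2H, which codes for a ubiquitin-conjugating enzyme, on the side of MIR183 and NRF1, which codes for a transcription factor of mitochondrial genes, on the side of MIR182. The sequences of the members are shown here because they tell which members share a seed and how easily reads of 1 member could be counted for another. They were read from the list of miRDeep2 predictions that accompanies the study. That list held 4 predictions at this locus of CanFam3.1, all of them on the minus strand, with 3 distinct mature sequences. In order along the chromosome, the predicted precursors lie at chr14:7068542-7068601, chr14:7068767-7068826 and chr14:7072722-7072783 (1-based, with the starts of the list read as counted from 0), the order of MIR183, MIR96 and MIR182. None of the 4 predictions is among the 165 predicted miRNAs of the deposited table. Forward and reverse reads of a sample were merged before mapping, and whether reverse reads gave these minus-strand predictions was not tested. The predicted mature sequences, with the complement of the seed in capitals, were:
opposite miR-183: agugaauucuaccaGUGCCAUa
opposite miR-96: agcaaaaaugugcuaGUGCCAAa
opposite miR-182: cagugugaguucuaccaUUGCCAAa

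Their reverse complements, given the members' names by this order along the chromosome, carry the seed in capitals:
miR-183: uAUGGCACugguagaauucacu
miR-96: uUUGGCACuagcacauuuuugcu
miR-182: uUUGGCAAugguagaacucacacug

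These sequences are 22, 23 and 25 bases long, and the authors kept reads of 22 to 30 bases. No 2 members shared a complete seed. Counted from 1 at the 5′ end, the seed of miR-183 and the seed of miR-96 differed by A2U, those of miR-96 and miR-182 by C8A, and those of miR-183 and miR-182 by both. Over the whole sequence, miR-183 and miR-182 were the most alike, with 18 identical bases at the first 22 positions, seed included. miR-96 matched miR-183 at 13 of 22 positions and miR-182 at 12 of 23. None of the 165 predicted miRNAs of the study carried a seed of a member. The mature sequences of the other known miRNAs were not searched here.

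The levels are counts per 1000000 reads (CPM) recovered from the deposited values, and each is a share of its library. A lower CPM therefore means a smaller share relative to the other miRNAs. Neither the number of EVs nor the absolute content per EV can be read from it. The recovered reads on the rows were more in the pTDE libraries (6296386 and 5053607 reads) than in the mTDE libraries (3457028 and 2330271 reads). These totals are not sequencing depth, and some rows, such as cfa-mir-92a-1 and cfa-mir-92a-2, hold identical values. Which library was run on which of the HiSeq and NovaSeq instruments is not given in the sources used here. miR-21 was the highest row in every library, with 22.5% to 37.8% of the CPM. Of 7 miRNAs listed as markers of epithelial cells, all were found in both mTDE libraries, whereas cfa-mir-200a, cfa-mir-200b, cfa-mir-141 and cfa-mir-429 were at 0 in both pTDE libraries. Of 4 miRNAs of blood cells (cfa-mir-451, cfa-mir-486-3p, cfa-mir-144 and cfa-mir-223), cfa-mir-144 was at 0 in every library and none of the 3 tested was called by limma (1.84% of all rows tested were). The list's summed level was 245 and 853 CPM in pTDEs and 675 and 2898 CPM in mTDEs. Most of it came from cfa-mir-451, the defining miRNA of red blood cells (123 to 1423 CPM over the libraries), and from cfa-mir-486-3p (110 to 1397 CPM). For cfa-mir-486-3p and cfa-mir-223 both pTDE libraries were below both mTDE libraries, as they were in 27.3% of the rows tested. The part of blood miRNAs in the results below was not tested.

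All 3 members were found in all 4 libraries, with miR-96 far below the others. miR-182 reached 9270 CPM in pTDE replicate 1 and 17976 CPM in pTDE replicate 2, against 13976 and 16871 CPM in the mTDE replicates. Both mTDE libraries thus lay between the pTDE libraries, and the groups overlapped. By level, miR-182 ranked 19 and 13 among the miRNAs of the pTDE libraries and 18 in each mTDE library, among the more abundant miRNAs of these EVs.

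miR-183 reached 4735 CPM in pTDE replicate 1 and 8149 CPM in pTDE replicate 2, against 13976 and 9720 CPM in the mTDE replicates. Both mTDE libraries were higher than both pTDE libraries, and miR-183 was the only member whose groups did not overlap, a state that 53.4% of all rows tested shared. Median-ratio size factors, another scaling of the libraries, were 0.941 for pTDE replicate 2 and 1.36 for mTDE replicate 2. Divided by them, miR-183 was lower in mTDE replicate 2 than in pTDE replicate 2, so that its groups overlapped. Its rank was 29 and 22 in pTDEs and 18 and 21 in mTDEs.

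miR-96, the member whose seed is mutated in hereditary hearing loss, reached 199 CPM in pTDE replicate 1 and 172 CPM in pTDE replicate 2, against 168 and 242 CPM in the mTDE replicates. The lowest and the highest value were both from mTDEs, so that the groups overlapped. Its rank was between 101 and 119, and 306 to 347 rows were found in a library.

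**Figure D1:**
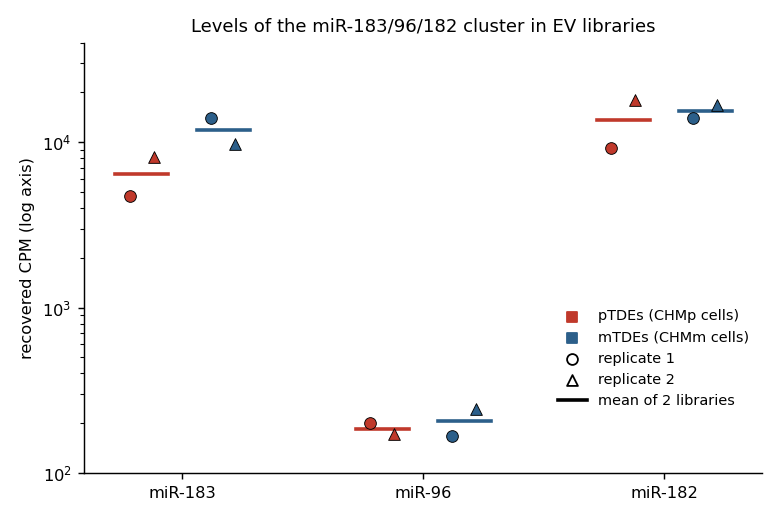
CPM of each member on a log axis in each library of pTDEs (red) and mTDEs (blue), with replicate 1 as a circle, replicate 2 as a triangle and the mean of 2 libraries as a line. miR-182 and miR-183 sit between 4735 and 17976 CPM and miR-96 between 168 and 242 CPM, and miR-183 is the member whose red and blue points do not overlap.

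Counting error was small for miR-182 and miR-183 and larger for miR-96. The members rested on about 565 reads (miR-96 in mTDE replicate 2) to about 90844 reads (miR-182 in pTDE replicate 2), for a counting error of 4.21% to 0.332% of the value. The rounding of the deposited whole numbers adds at most 0.0814%. These errors do not cover amplification, which can make several reads of 1 molecule. For every member, the replicates differed by more than their counting error. miR-182 differed 1.94-fold between the pTDE replicates and 1.21-fold between the mTDE replicates, miR-183 1.72-fold and 1.44-fold, and miR-96 1.16-fold and 1.44-fold.

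On the log2(CPM + 1) scale the distance between the pTDE replicates was 0.96 for miR-182 and 0.78 for miR-183, both with replicate 2 higher, and 0.21 for miR-96, with replicate 1 higher. Over the 267 rows with at least 10 reads in both pTDE libraries, the median distance was 0.62. Between the mTDE replicates it was 0.27 for miR-182, 0.52 for miR-183 and 0.53 for miR-96, against a median of 0.82 over 240 rows. By recovered CPM, the members thus differed less than the typical miRNA between the mTDE replicates. Between the pTDE replicates, miR-182 and miR-183 differed more than the typical miRNA. The mTDE median includes an offset between whole libraries, whose median-ratio size factors were 0.869 and 1.36. miR-183 was higher in mTDE replicate 1, and miR-182 and miR-96 in mTDE replicate 2. Rows were not matched by level in this comparison.

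Whether the cluster differs between EVs of the primary and the metastatic cell line was tested with limma on log2(CPM + 1), over the 326 rows that both libraries of CHMp or both libraries of CHMm held above 0. None of the 3 members was called at an adjusted p-value under 0.05, and none had an unadjusted p-value under 0.05. Over all rows tested, 1.84% were called, 0 higher and 6 lower in pTDEs (5 higher and 9 lower with median-ratio scaling), and 19.6% had an unadjusted p-value under 0.05. limma voom on the recovered reads called none of the members either.

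miR-183 had a mean of 6442 ± 2414 CPM for pTDEs and of 11848 ± 3010 CPM for mTDEs (± SD, n = 2). Its log2 fold change, pTDEs over mTDEs, was -0.91 with a standard error of 0.44, or 1.88-fold higher in mTDEs (limma adjusted p = 0.327). The 95% interval of the log2 fold change, from -2.08 to 0.26, reaches from a 0.236-fold to a 1.20-fold level in pTDEs. Without pTDE replicate 1 the log2 fold change was -0.52, the smallest value with 1 library left out. The lack of overlap was no rare pattern: of the rows tested, 27.3% had both pTDE libraries below both mTDE libraries, and 26.1% had both above. Over all rows tested, 51.8% had a larger log2 fold change in either direction. Among the 44 other rows within 2 of its mean log2(CPM + 1), a window chosen after the values were seen, 11 had a larger one, and their median size was 0.59.

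miR-182 had a mean of 13623 ± 6156 CPM for pTDEs and of 15423 ± 2047 CPM for mTDEs (± SD, n = 2). Its log2 fold change was -0.25 (limma adjusted p = 0.778, standard error 0.45), with a 95% interval from -1.45 to 0.95. With 1 library left out, the log2 fold change lay between -0.73, without pTDE replicate 2, and 0.23, without pTDE replicate 1. With median-ratio scaling it was -0.0089, so that no direction can be given for miR-182. miR-96 had a mean of 186 ± 19.0 CPM for pTDEs and of 205 ± 52.5 CPM for mTDEs (± SD, n = 2). Its log2 fold change was -0.12 (limma adjusted p = 0.916, standard error 0.54), with a 95% interval from -1.57 to 1.32. Without mTDE replicate 2 it was 0.14, and with median-ratio scaling 0.12, so that its direction depended on these choices. With intervals that reach -1.45 and -1.57, these data do not show that the levels of miR-182 and miR-96 are equal between the cell lines.

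**Figure D2:**
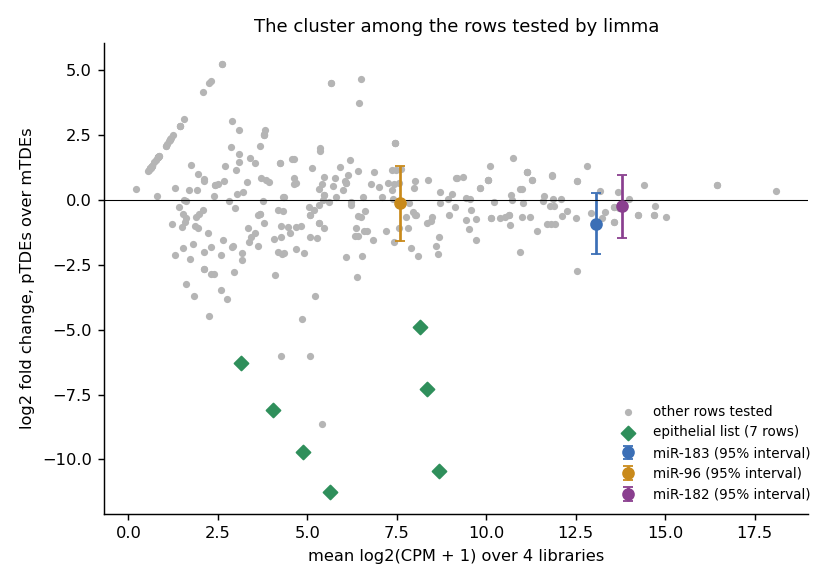
Log2 fold change of pTDEs over mTDEs against the mean log2(CPM + 1) over 4 libraries for the 326 rows tested by limma, with the members in color with 95% intervals, the 7 epithelial miRNAs as green diamonds and all other rows in gray. The members lie at -0.91, -0.12 and -0.25 within the gray cloud and their intervals include 0, whereas the green diamonds lie between -11.27 and -4.91, where the values of 4 miRNAs at 0 in both pTDE libraries depend on the added 1 CPM.

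The median log2 fold change of the members was -0.25, against -0.03 over all rows tested. Of the 7 epithelial miRNAs (the miR-200 family, miR-205 and miR-203), 6 were called lower in pTDEs, which are all the calls among the rows tested (1.84%). Without either mTDE library, limma called 0 rows in all, with 73 and 77 at an unadjusted p-value under 0.05. Their summed level was 73.9 and 104 CPM in the pTDE libraries and 23718 and 26413 CPM in the mTDE libraries, the latter close to the summed level of the cluster in the same libraries. The difference between these lists was not tested.

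The summed level of the 3 members came to 14204 CPM in pTDE replicate 1 and 26297 CPM in pTDE replicate 2, against 28119 and 26833 CPM in the mTDE replicates. The cluster thus made up 1.42% and 2.63% of the pTDE libraries and 2.81% and 2.68% of the mTDE libraries. Both pTDE values were below both mTDE values, but pTDE replicate 2 was close to the mTDE libraries and pTDE replicate 1 far below the other 3. On the log2 scale the summed level was lower by 0.51 in pTDEs, which is 0.704-fold, while the pTDE replicates differed by 0.89. An exact two-sided permutation test gave p = 0.333, the smallest value that 2 libraries against 2 can give. Without pTDE replicate 1 the difference in summed level was -0.06, without pTDE replicate 2 it was -0.95, and with median-ratio scaling it was -0.27. With that scaling, mTDE replicate 2 lay below pTDE replicate 2, so that the groups overlapped (exact two-sided permutation p = 0.667).

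A ratio between members within a library does not depend on the scaling of the recovered CPM, though it does depend on the conversion of the deposited values. The ratio of miR-182 to miR-183 came to 1.96 in pTDE replicate 1 and 2.21 in pTDE replicate 2, against 1.0 and 1.74 in the mTDE replicates. miR-182 thus exceeded miR-183 in 3 of 4 libraries, and in mTDE replicate 1 both rows held the same deposited value. Both pTDE ratios were higher than both mTDE ratios. The log2 ratio was higher by 0.66 in pTDEs, but the mTDE replicates differed by 0.80 (exact two-sided permutation p = 0.333, adjusted p = 0.667 over the summed level and the 3 ratios). Without mTDE replicate 1 the difference in log2 ratio was 0.26, and without mTDE replicate 2 it was 1.06.

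The equal values in mTDE replicate 1 were 6713 in the deposited table for both miR-182 and miR-183. At this level, a step of 1 in the deposited value spans about 68.7 reads, so that the reads of both rows need not have been equal. It was the only value shared by different miRNAs among the 68 rows over 1000 CPM in that library. The other libraries had 1, 2 and 4 such shared values among 68, 69 and 79 rows.

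**Figure D3:**
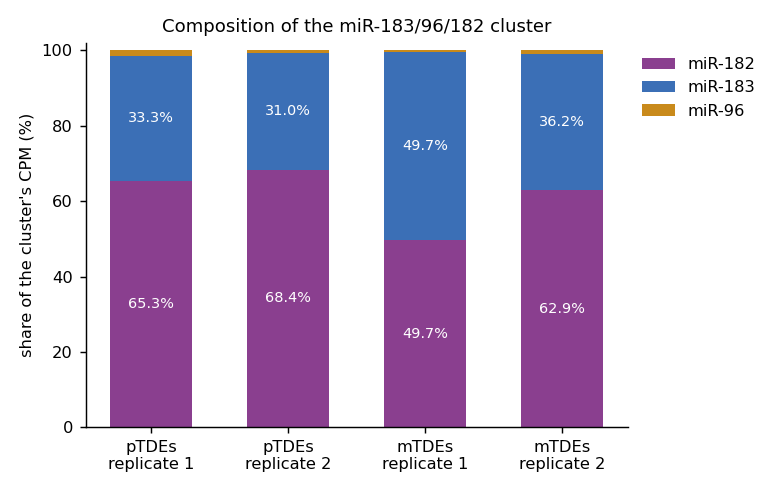
Share of the cluster's summed CPM taken by each member in each library, as stacked bars from 0 to 100%. miR-182 takes 65.3% and 68.4% in pTDEs and 49.7% and 62.9% in mTDEs, and miR-96 appears as a thin cap of at most 1.40%.

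miR-96 was a minor member in every library. Its level came to 4.20% of that of miR-183 in pTDE replicate 1 and 2.11% in pTDE replicate 2, against 1.20% and 2.49% in the mTDE replicates. The groups overlapped, and the log2 ratio was higher by 0.78 in pTDEs with distances between replicates of 0.99 and 1.05 (exact two-sided permutation p = 0.667, adjusted p = 0.889). This difference was 0.26 without mTDE replicate 1, 0.29 without pTDE replicate 1, 1.28 without pTDE replicate 2 and 1.31 without mTDE replicate 2. Relative to miR-182, miR-96 was at 2.15% and 0.958% in pTDEs and at 1.20% and 1.44% in mTDEs. Here the pTDE libraries were the highest and the lowest, and the difference in log2 ratio of 0.13 was smaller than either distance between replicates, 1.16 and 0.26 (exact two-sided permutation p = 1.0, adjusted p = 1.0). Without pTDE replicate 1 it was -0.46 and without pTDE replicate 2 it was 0.71. As a share of the cluster, miR-96 took from 0.598% in mTDE replicate 1 to 1.40% in pTDE replicate 1. The highest miR-96 level, 242 CPM, lay far below the lowest level of the other members, 4735 CPM. In mTDEs the levels of miR-182 and miR-183 met only at 13976 CPM, the value of both in replicate 1.

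**Figure D4:**
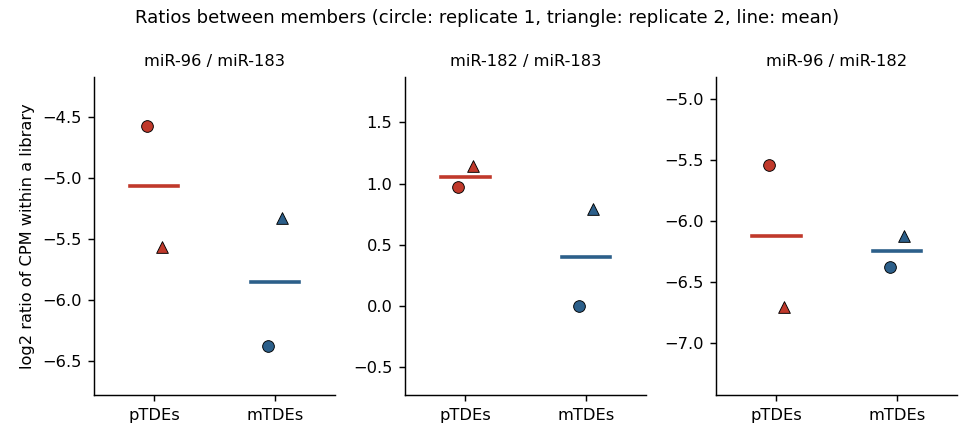
Log2 ratio of the CPM of 2 members within each library for pTDEs (red) and mTDEs (blue), with replicate 1 as a circle, replicate 2 as a triangle and the mean as a line; each panel spans the same range of log2 units. The ratio of miR-182 to miR-183 separates the groups (0.97 and 1.14 against 0 and 0.80), and the ratios with miR-96 overlap.

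Other clusters of 3 miRNAs served for comparison. In the cluster of miR-106b, miR-93 and miR-25, which lies within the MCM7 gene, the log2 fold changes of the members ranged from 0.02 to 0.47. In the cluster of miR-23b, miR-27b and miR-24-1 they ranged from -1.40 to -0.48. The row cfa-mir-24-1 holds the same values as cfa-mir-24-2 of another locus, so that its level and ratios cannot be given to this cluster alone. No row of either cluster was called by limma, as against 1.84% of all rows tested, a share at which 6 rows give no result about these clusters. Over the 4 libraries, the log2 ratios between members varied within a range of 1.14 to 1.81 in the miR-183 cluster, of 1.20 to 2.87 in the miR-106b cluster and of 1.10 to 1.78 in the miR-23b cluster. Of the 3 ratios of each cluster, 1 did not overlap between pTDEs and mTDEs in the miR-183 cluster, 0 in the miR-106b cluster and 2 in the miR-23b cluster, while 53.4% of the rows tested did not overlap by level. The widest range was that of miR-106b to miR-25, and no difference between the clusters was tested.

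The miRNAs with the most similar pattern were sought over the 4 libraries as the smallest root mean square difference in log2(CPM + 1) after centering each row, among 256 known rows tested. Of rows with identical values, such as cfa-mir-99a-1 and cfa-mir-99a-2 or cfa-mir-128-1 and cfa-mir-128-2, only the first was named. The ranks below count every row. For miR-183 they were cfa-mir-99b (0.12), cfa-mir-128-1 (0.21) and cfa-mir-30d (0.22). For miR-182 they were cfa-mir-99a-1 (0.17), cfa-mir-25 (0.20) and cfa-mir-652 (0.21). For miR-96 they were cfa-mir-671 (0.15), cfa-mir-181d (0.18) and cfa-mir-93 (0.19). No member was among the 3 rows most like another member. miR-182 ranked 16 and miR-96 ranked 49 in likeness to miR-183, at differences of 0.44 and 0.64. With 4 libraries these are descriptions of single patterns. cfa-mir-99b, the closest to miR-183, reached 1678 CPM in pTDE replicate 1, 3497 CPM in pTDE replicate 2, 5870 CPM in mTDE replicate 1 and 3580 CPM in mTDE replicate 2, the same order of libraries as miR-183.

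**Figure D5:**
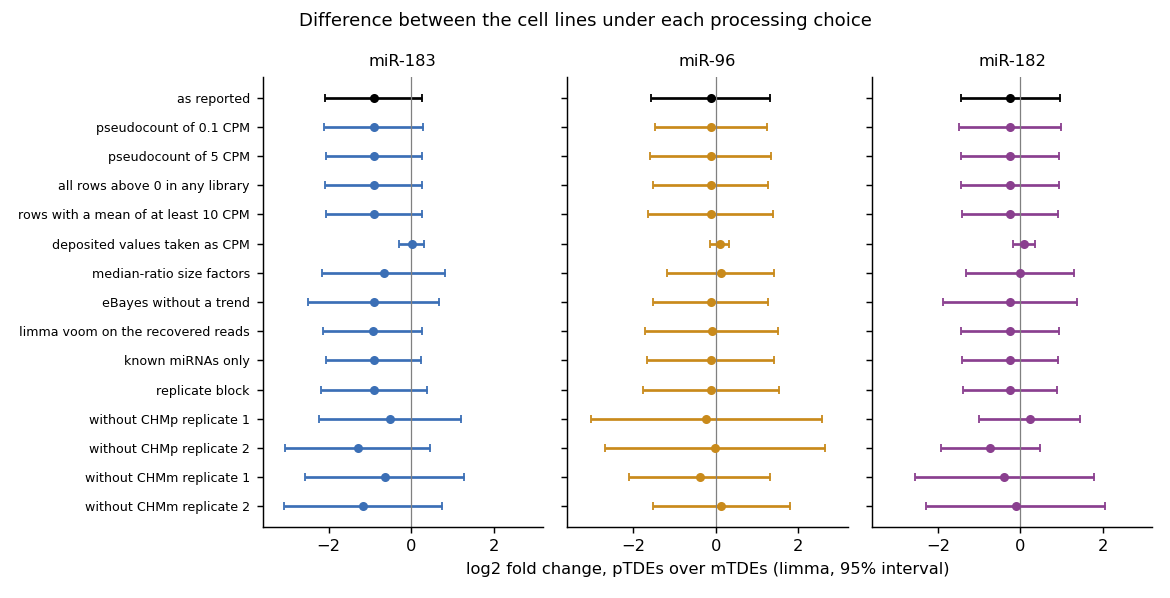
Log2 fold change of pTDEs over mTDEs with its 95% interval from limma for each member, as reported (black) and under each other processing choice (color). Every interval includes 0, the values of miR-183 lie between -1.30 and 0.02, and those of miR-96 and miR-182 fall on both sides of 0.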

How the data were processed

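Small RNA of EVs from CHMp and CHMm was sequenced with 2 replicates per cell line, which the study describes as biological. The authors trimmed and length-selected reads with cutadapt, merged forward and reverse reads, and ran miRDeep2 on CanFam3.1 to quantify canine miRNAs, known and predicted; versions are not given in the sources used here. The values deposited for each library were handled as a score, since they are described as CPM but have the form of log2(CPM + 1) times a constant of the library. The deposited table also holds the authors' edgeR comparison, with its fold changes, p-values and test statistics; these were not used. The design was written for CPM or counts, and the unit found is a score, tested on a log scale.

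CPM were recovered as 2^(value/s) - 1, with s (495, 493, 487 and 426) set so that each library totals 1000000. The worth of 1 read is the largest step (0.159 to 0.429 CPM) that divides every distinct low value, under 20 CPM, within rounding; 100% of them passed. R 4.3.3 with limma 3.58.1 and Python 3.11.15 (numpy 2.4.6, scipy 1.17.1, pandas 2.3.3) were used. Differences in log2(CPM + 1) were fitted in limma (eBayes, trend), with Benjamini-Hochberg adjustment over 326 rows; the prior degrees of freedom were 2.4. The summed level and ratios were compared by exact permutation. The conversion and the tests were tested on simulated data.

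The members and lists were chosen with earlier results of these data known. For miR-486 of the blood list, the row cfa-mir-486-3p was used. Named are the members, the epithelial, blood and comparison lists, the 3 rows most like each member, the nearest miRNA genes of RefSeq, and predicted precursors opposite the members. RefSeq names come from UU_Cfam_GSD_1.0, whose coordinates are not printed.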

Additional observations from a re-analysis of the deposited data

How the results depend on the processing

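No member was called under any of the 14 alternatives, voom included, and adjusted p-values ranged from 0.312 to 0.990. They changed the pseudocount (to 0.1 or 5 CPM), the row filter, the conversion, the scaling (median-ratio size factors), the trend or the model (voom), kept known miRNAs only, added a replicate block, or left out 1 library. With the deposited values taken as CPM, the log2 difference turned to 0.016 for miR-183, 0.094 for miR-96, 0.090 for miR-182 and 0.063 for the summed level; the log2 ratio differences fell to 0.078 for miR-96 to miR-183, 0.074 for miR-182 to miR-183 and 0.0042 for miR-96 to miR-182. These are differences of compressed values. With median-ratio size factors, that of miR-96 turned to 0.12, that of miR-182 was -0.0089, that of miR-183 -0.67 and that of the summed level -0.27, as the median over all rows moved from -0.03 to 0.22. With 1 library left out, log2 differences ranged from -1.30 to -0.52 for miR-183, -0.39 to 0.14 for miR-96, -0.73 to 0.23 for miR-182 and -0.95 to -0.06 for the summed level. Log2 ratio differences ranged from 0.26 to 1.31 for miR-96 to miR-183, 0.26 to 1.06 for miR-182 to miR-183 and -0.46 to 0.71 for miR-96 to miR-182. An arm left with 1 library is assumed to vary like the others. Over all rows, calls higher and lower in pTDEs went from 0 and 6 to 28 and 11 with 0.1 CPM added, 39 and 11 with deposited values taken as CPM, 4 and 9 without a trend or with known miRNAs, 5 and 11 with voom, 37 and 4 without either pTDE library, and 0 and 0 without either mTDE library (limma, 73 and 77 rows at an unadjusted p-value under 0.05), where the median over all rows also moved, to -0.58 without mTDE replicate 1 and 0.46 without mTDE replicate 2. Other causes were not tested.

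The replicate numbers were treated as names only, since the labels do not say whether libraries of the same number belong together. The deviations of the libraries numbered 1 correlated at 0.15 over 326 rows, which with 2 pairs cannot decide it. With the replicate block, the log2 differences were the same (-0.91 for miR-183, -0.12 for miR-96, -0.25 for miR-182 and -0.51 for the summed level), no member was called, and 7 rows in all were called instead of 6. With 2 libraries per cell line, permutation p-values cannot fall under 0.333.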

Other observations

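Chromosome 14 carries 13 miRNA genes of the deposited table by RefSeq name, of which 10 were tested and 0 were called by limma, against 1.84% of all rows tested, so that the count says nothing about the chromosome. The nearest of them outside the cluster are cfa-mir-335 before MIR183 and cfa-mir-129-1 after MIR182. cfa-mir-335, a miRNA within the imprinted MEST gene, was at 13.2 and 16.2 CPM in pTDE replicates 1 and 2 and at 4.63 and 74.7 CPM in mTDE replicates 1 and 2. cfa-mir-129-1 was at 36.7 and 24.2 CPM in pTDEs and at 8.10 and 13.7 CPM in mTDEs, higher in pTDEs without overlap (log2 fold change 1.41, limma adjusted p = 0.411). The row cfa-mir-129-2 had the same mean level and log2 fold change, so that these values are not specific to the locus beside the cluster. Rows with both pTDE libraries above both mTDE libraries made up 26.1% of the rows tested. At 4.63 to 74.7 CPM, these neighbors of the cluster were below every member.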
